A study of Mus musculus with 9 samples.

Results

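The heat shock set comprised the genes that encode the cytosolic and mitochondrial chaperones and their partners: the HSP90, HSP70 and HSP110 families, their J-domain partners (the DNAJ genes), the small heat shock proteins, the mitochondrial chaperonin, the BAG co-chaperones and the heat shock transcription factors. Members were the protein-coding genes of the deposited table whose symbols match these families, without the chaperones Hspa5, Hsp90b1, Dnajb9, Dnajb11 and Dnajc3 of the endoplasmic reticulum (ER). This gave 79 of 48230 genes, of which 67 passed the filter on low values and were tested. The symbols set the boundary, so some members lie outside both compartments, among them 8 known ER proteins (Hspa13, Dnajb12, Dnajb14, Dnajc1, Dnajc10, Dnajc14, Dnajc16 and Dnajc18), and Hspb11 and Hspbap1, which are no small heat shock proteins despite their symbols.

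Expression was measured by stranded mRNA sequencing of BeCon cells, mouse ovarian tumor cells, in 9 libraries. Ascites was taken from B6 mice that carried BeCon tumors and received either vehicle (4 libraries) or YKL-05-099 (4 libraries), a compound that blocks the salt-inducible kinases, and viable cells lacking CD45 and carrying MHC class I were sorted from it. The ninth library came from untreated BeCon cells in culture and has no replicate. Not given in the sources used here are the dose, the schedule and whether each library holds cells of 1 mouse or of several. The p-values below therefore describe spread among libraries, which may be technical. The vehicle and YKL-05-099 libraries carry different name prefixes, whose meaning the labels do not give, and whatever they stand for cannot be told apart from treatment. Both contrasts below, treatment against vehicle and culture against vehicle, use the same vehicle libraries.

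Chaperones of the HSP70 class bind unfolded stretches of client proteins in a cycle driven by ATP, in which J-domain proteins deliver the client and start hydrolysis, and HSP110 and BAG proteins release the nucleotide. HSP90 takes over clients such as kinases and steroid receptors for late folding, small heat shock proteins hold unfolded clients without ATP, and HSPD1 with its lid HSPE1 folds proteins inside mitochondria. Under proteotoxic stress the transcription factor HSF1 forms trimers, binds heat shock elements (inverted repeats of the unit GAA) and induces many of these genes, while others are expressed at a constant high level.

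The heat shock elements of 5 members are shown because these genes include the largest treatment differences of the set and the genes with the densest elements. They were read from RefSeq windows on GRCm38.p6, 5′ to 3′ on the strand of the gene. Capitals mark each match to GAANNTTC or TTCNNGAA, searched on both strands. Positions are counted back from the RefSeq start of the transcript.

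Hspa1b, chr17:34959239-34959368, minus strand: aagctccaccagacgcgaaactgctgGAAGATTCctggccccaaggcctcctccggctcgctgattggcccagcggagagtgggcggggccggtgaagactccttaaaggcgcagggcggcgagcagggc
Hspa1a, chr17:34972157-34972286, minus strand: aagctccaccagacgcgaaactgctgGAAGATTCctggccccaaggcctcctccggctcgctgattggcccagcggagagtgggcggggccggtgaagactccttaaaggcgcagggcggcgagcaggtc
Hspb1, chr5:135887789-135887918, plus strand: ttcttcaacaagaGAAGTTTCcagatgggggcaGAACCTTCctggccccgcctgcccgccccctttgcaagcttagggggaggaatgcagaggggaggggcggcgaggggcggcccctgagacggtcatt
Hsph1, chr5:149636351-149636380, minus strand: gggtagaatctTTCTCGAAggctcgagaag
Hspe1, chr1:55088053-55088082, plus strand: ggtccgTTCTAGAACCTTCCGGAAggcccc

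The windows of the neighbouring genes Hspa1a and Hspa1b differed at 1 of 130 bases, and both held the match at position -104. Hspb1 held matches at -117 and -97. Hsph1 held 1 at -33, which lies in an annotated exon of Hsph1 in GENCODE. Hspe1 held 3 overlapping matches at -89, -84 and -79, a run that the divergent neighbour Hspd1 shares and that lies in an annotated Hspd1 exon. Of 62 members with a RefSeq window, 15 held at least 1 match in the 250 bases before the start, against 14.5% of 27025 genes. The longer element, GAANNTTC extended by NN and a further GAA, on either strand, was found in 3 members, Hspd1, Hspe1 and Dnajb6, and in 0.514% of genes. The cAMP response element TGACGTCA, the site of the CREB factors whose coactivators the salt-inducible kinases restrain, was found in 1 member, Dnajc27, and in 1.77% of genes. A match describes these letters only, and absence of one says nothing about binding elsewhere.

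YKL-05-099 treatment was accompanied by higher transcripts of the inducible HSP110 gene Hsph1 and the scarce inducible HSP70 gene Hspa1b. Transcripts of most small heat shock genes were lower, while HSP90, the mitochondrial chaperonin and most J-domain genes were not called. Hspa1a, near-identical to Hspa1b in coding sequence, was too low to be tested and read below every vehicle library after treatment. Hsph1 went from 22.8 ± 11.8 FPKM in vehicle to 52.6 ± 7.35 FPKM after YKL-05-099, and Hspa1b from 1.48 ± 0.643 to 4.00 ± 0.216 FPKM (SD, n = 4 each). Hspb1 fell from 614 ± 97.8 to 382 ± 25.6 FPKM. FPKM is a count of fragments scaled to transcript length and to the mapped fragments of the library, so levels of different genes can be set side by side. Fold changes are differences of log2(FPKM + 1), a scale on which changes of scarce genes come out too small. In sorted bulk cells, fewer cells of a type and less RNA per cell cannot be told apart.

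In limma, with Benjamini-Hochberg adjustment over 11788 genes and calls under 0.05, 28 of 67 members were called (41.8%), close to the share among all genes of 43.2%. Of them 18 were higher (26.9%, against 28.0% of all genes) and 10 lower (14.9%, against 15.1%). The median log2 fold change was 0.04 in the set and 0.05 in all genes. Vehicle and YKL-05-099 values did not overlap for 22 members (32.8%, against 40.0% of all genes), 13 higher and 9 lower, against 26.5% and 13.5%. Calls in the set were thus about as frequent as among all genes. A change of at least 1 log2 unit was called for 2 members, Hsph1 and Hspa1b, and for 252 of all genes, and one of at least 0.5 log2 units for 6 members and 1346 genes. After median-of-ratios scaling the split was 10 higher and 13 lower members, and 2573 higher and 2332 lower genes, in place of 3304 and 1785. With no filter on low values, the calls of Bag3, Dnajc5, Dnajc28, Hsf1, Hspa4l, Hspa8, Hspa12a, Hspb2 and Hspb8 were lost. That fit called 12 of 74 members higher and 9 lower (28.4% in all, against 19.8% of 24793 genes). The lower ones included members that the main filter left out.

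**Figure D1:**
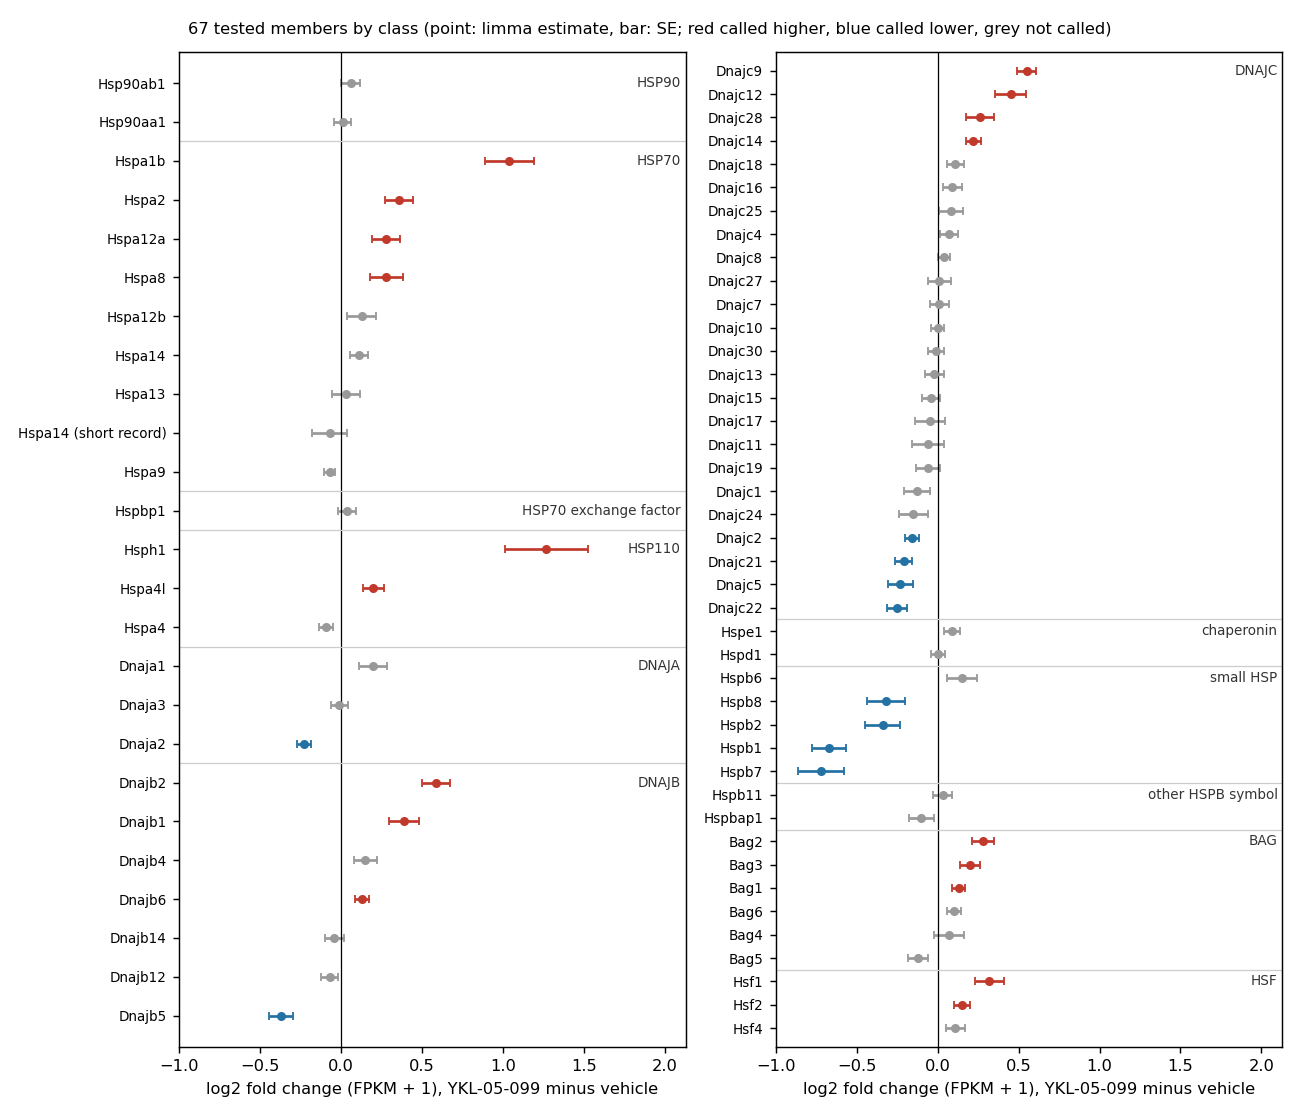
Log2 fold change on the log2(FPKM + 1) scale (horizontal axis, YKL-05-099 minus vehicle, bars are SE) for the 67 tested members by class. Points of called members are red (18 higher) or blue (10 lower). Hsph1 and Hspa1b lie furthest to the right at 1.27 and 1.04, and Hspb7 and Hspb1 furthest to the left at -0.72 and -0.67.

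The HSP110 family, exchange factors of HSP70 that also hold unfolded clients, had 2 of 3 members called higher and none lower. Among all genes 28.0% were called higher and 15.1% lower. Hsph1 (chromosome 5, 149614287 to 149636376), the stress-inducible member, read 15.4, 16.8, 18.7 and 40.4 FPKM in vehicle replicates 1 to 4, 45.7, 62.7, 53.1 and 49.1 FPKM in YKL-05-099 replicates 1 to 4 and 20.7 FPKM in culture. Every YKL-05-099 library lay above every vehicle library, but vehicle replicate 4 stood close to the treated libraries and far from the other vehicle ones. The log2 fold change was 1.27 (SE 0.254, limma adjusted p = 0.00319), and 1.57 (SE 0.103, adjusted p = 9.74e-06) without that replicate. Hspa4l rose by a small step from 17.1 ± 1.09 to 19.8 ± 1.57 FPKM (log2 fold change 0.20, adjusted p = 0.0334), with groups that overlapped. That call ended in 6 of the 8 fits that left out 1 library and after median-of-ratios or quantile scaling. Hspa4, the constitutive member, was 55.9 ± 2.33 and 52.4 ± 1.57 FPKM (log2 fold change -0.09, adjusted p = 0.120).

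Among the HSP70 genes, 4 of 9 tested were called higher and none lower, against 28.0% and 15.1% of all genes. Hspa1b (chromosome 17, 34956436 to 34959238), which encodes the inducible cytosolic HSP70, read 1.10, 1.01, 1.42 and 2.41 FPKM in the 4 vehicle libraries, 4.08, 3.88, 3.79 and 4.27 FPKM in the 4 YKL-05-099 libraries and 0.234 FPKM in culture. The groups did not overlap, vehicle replicate 4 was again the highest vehicle library, and the cultured cells were below all of them. The log2 fold change was 1.04 (SE 0.151, limma adjusted p = 5.54e-04). Even in treated cells the level stayed far below that of the constitutive Hspa8. The coding sequences of Hspa1b and Hspa1a are 98.2% identical, so their separate values are uncertain. Hspa1a read 0.304, 0.327, 0.328 and 0.294 FPKM in vehicle against 0.0310, 0.158, 0.148 and 0.0964 FPKM after YKL-05-099, below every vehicle library, and was not tested because of its low level. The sum of both genes was 1.80 ± 0.632 and 4.11 ± 0.186 FPKM, with a log2 fold change of 0.89 (SE 0.135, adjusted p = 7.07e-04), a calculation added after the values were seen.

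Hspa8, the constitutive cytosolic HSP70 and second most abundant member, read 514, 570.0, 596 and 748 FPKM in vehicle, 683, 763, 748 and 726 FPKM after YKL-05-099 and 495 FPKM in culture. The groups overlapped through vehicle replicate 4 alone, since the other 3 vehicle libraries were below every treated one. Its log2 fold change of 0.28 passed narrowly (SE 0.101, limma adjusted p = 0.0487). The call was lost in 7 of 8 fits that left out 1 library and after median-of-ratios scaling (0.23, adjusted p = 0.112). Only the fit without vehicle replicate 4, the vehicle library nearest the treated ones, kept it (0.38, adjusted p = 0.00138). Hspa2, an HSP70 best known from male germ cells, read 24.2, 22.8, 21.8 and 23.9 FPKM in vehicle, 25.5, 31.1, 29.3 and 35.3 FPKM after YKL-05-099 and 11.9 FPKM in culture. It rose without overlap (log2 fold change 0.36, SE 0.0860, adjusted p = 0.00757). Hspa12a, a distant relative of HSP70, read 35.5, 32.0, 36.7 and 44.0 FPKM in vehicle, 42.3, 45.8, 44.4 and 47.6 FPKM after YKL-05-099 and 13.3 FPKM in culture. Here too only vehicle replicate 4 reached into the treated range (log2 fold change 0.28, adjusted p = 0.0227), and the call was lost without vehicle replicate 1 or 2, without YKL-05-099 replicate 2 or 4, and after median-of-ratios scaling.

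The remaining HSP70 genes were not called. Hspa9, the mitochondrial HSP70, read 86.3, 86.1, 88.2 and 84.0 FPKM in vehicle against 82.8, 79.7, 83.3 and 82.3 FPKM after YKL-05-099. The groups did not overlap, but the step was small (log2 fold change -0.07, adjusted p = 0.148, and -0.12 with adjusted p = 0.0235 after median-of-ratios scaling). Hspa12b, Hspa13 and the ribosome-associated Hspa14 had log2 fold changes of 0.13, 0.03 and 0.11. A second, short record of Hspa14 that overlaps the first on the same strand had -0.07, and reads cannot be assigned to one of the 2 records with certainty. Hspbp1, an exchange factor of HSP70, was 34.0 ± 2.22 and 35.1 ± 1.60 FPKM.

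**Figure D2:**
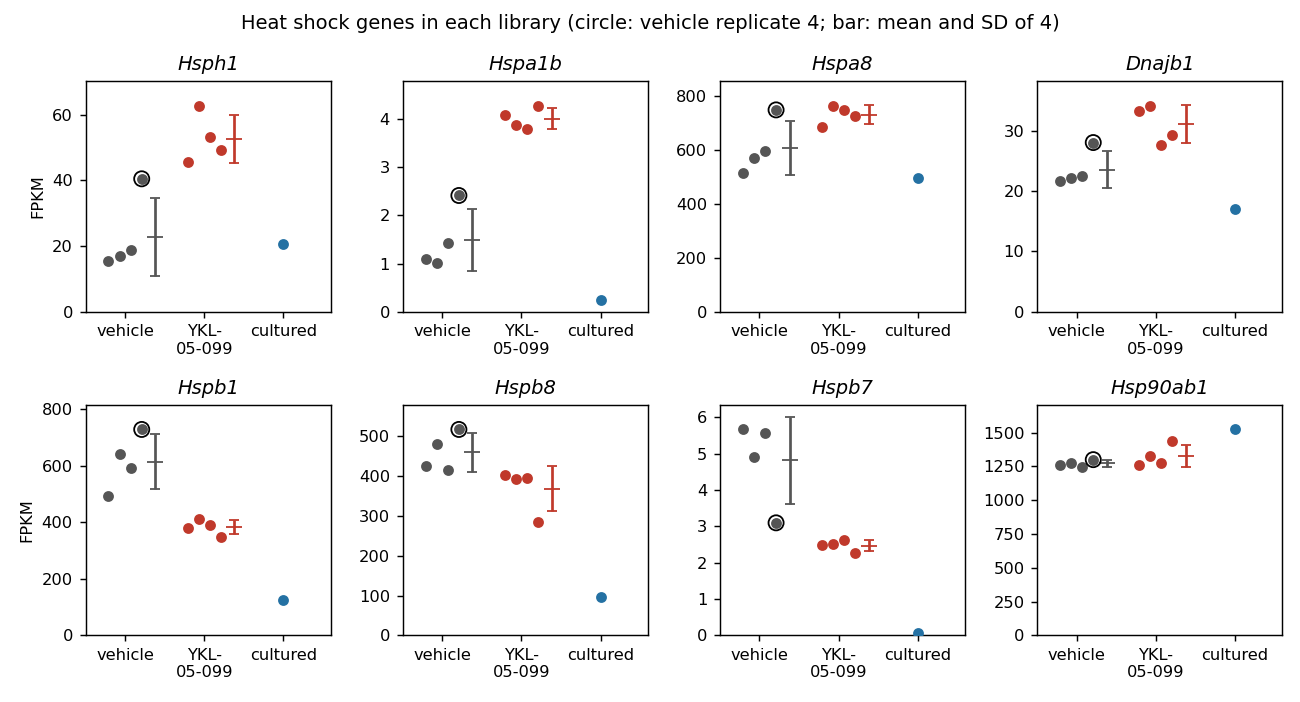
FPKM (vertical axis, linear, from 0) of 8 members in each library, with replicates 1 to 4 from left to right in each mouse group and the single cultured library. Horizontal marks with bars are the mean and SD of 4 libraries, and the open circle marks vehicle replicate 4, which at 40.4 FPKM lies nearer to the YKL-05-099 libraries than to the other vehicle libraries for Hsph1.

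Of the 34 J-domain genes tested, 7 were higher and 6 lower, against 28.0% and 15.1% of all genes. The cytosolic class A and class B genes, which deliver general clients to HSP70, gave mixed results. Dnajb2, a J-domain protein that binds ubiquitinated clients, read 27.5, 26.0, 30.4 and 36.1 FPKM in vehicle, 46.0, 45.5, 45.7 and 43.7 FPKM after YKL-05-099 and 29.3 FPKM in culture. The treated libraries were tightly grouped above all vehicle libraries (log2 fold change 0.59, SE 0.0868, limma adjusted p = 6.31e-04). Dnajb1, the classical stress-inducible HSP40 and partner of Hsph1 and Hspa8 in dissolving aggregates, read 21.6, 22.1, 22.5 and 28.0 FPKM in vehicle, 33.2, 34.1, 27.7 and 29.3 FPKM after YKL-05-099 and 17.1 FPKM in culture. It rose (log2 fold change 0.39, SE 0.0923, adjusted p = 0.00775), and the overlap came from vehicle replicate 4 and YKL-05-099 replicate 3. Dnajb6, a suppressor of aggregation, rose by 0.13 (adjusted p = 0.0354), a call lost in 5 of the 8 fits that left out 1 library and after median-of-ratios or quantile scaling.

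Dnajb5 went the other way, with 5.32, 5.79, 4.71 and 5.65 FPKM in vehicle, 4.20, 3.70, 4.06 and 3.70 FPKM after YKL-05-099 and 3.84 FPKM in culture. All treated values were lower than all vehicle values (log2 fold change -0.37, SE 0.0742, limma adjusted p = 0.00313). Dnajb4 read 63.7, 61.8, 62.4 and 65.8 FPKM in vehicle against 76.7, 77.8, 67.6 and 62.0 FPKM after YKL-05-099, with 33.9 FPKM in culture. YKL-05-099 replicate 4 lay within the vehicle range, and the log2 fold change of 0.15 was not called (adjusted p = 0.0995, and 0.22 with adjusted p = 0.0159 without that library). Dnaja2, a general cytosolic J-domain protein, read 61.9, 61.4, 63.9 and 63.7 FPKM in vehicle, 52.4, 51.3, 52.3 and 57.2 FPKM after YKL-05-099 and 72.8 FPKM in culture. It fell without overlap (log2 fold change -0.23, SE 0.0440, adjusted p = 0.00243). Its relative Dnaja1 was 41.9 ± 5.34 and 48.0 ± 3.72 FPKM and was not called (0.20, adjusted p = 0.0938), but was called without vehicle replicate 4 (0.28, adjusted p = 0.00934).

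Class C genes carry a J domain in proteins with specialised tasks. Of 24 tested, 4 were higher and 4 lower, against 28.0% and 15.1% of all genes. The smallest p of the set belonged to Dnajc9, a histone chaperone that recruits HSP70 to histones H3 and H4. It read 13.9, 13.1, 13.3 and 15.1 FPKM in vehicle, 21.2, 20.0, 19.8 and 22.1 FPKM after YKL-05-099 and 18.5 FPKM in culture. No vehicle library came near the treated ones (log2 fold change 0.55, SE 0.0578, limma adjusted p = 9.37e-05). Dnajc12, a partner of the aromatic amino acid hydroxylases, was scarce, at 0.832, 0.895, 0.730 and 0.881 FPKM in vehicle, 1.84, 1.43, 1.28 and 1.50 FPKM after YKL-05-099 and 2.05 FPKM in culture. It read higher without overlap (log2 fold change 0.45, limma adjusted p = 0.00390). Dnajc12 passed the filter at 1 FPKM only through the YKL-05-099 libraries, so this call, counted among the higher ones, adds no support. Dnajc14, an ER membrane protein, read 20.9, 22.4, 22.0 and 23.5 FPKM in vehicle, 26.1, 26.1, 25.6 and 26.0 FPKM after YKL-05-099 and 23.1 FPKM in culture, and rose by 0.22 (adjusted p = 0.00370) with treated libraries almost identical. The gene overlaps Ormdl2 on the opposite strand by 1990 bases, where reads cannot be told apart if strand was not used. Dnajc28 completed the higher calls with 0.26 (adjusted p = 0.0334), a call lost in 6 of the 8 fits that left out 1 library and after median-of-ratios or quantile scaling.

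The class C genes called lower include 2 with roles in protein synthesis. Dnajc2, which works on nascent chains at the ribosome together with Hspa14, fell from 44.6 ± 2.02 to 39.8 ± 1.05 FPKM (log2 fold change -0.16, limma adjusted p = 0.0148). Dnajc21, a factor in ribosome maturation, fell from 16.3 ± 0.720 to 13.9 ± 0.743 FPKM (-0.21, adjusted p = 0.0101). Neither overlapped between the groups. Dnajc22 read 11.9, 11.4, 11.0 and 10.4 FPKM in vehicle, 9.09, 10.2, 8.88 and 8.79 FPKM after YKL-05-099 and 23.6 FPKM in culture (-0.25, adjusted p = 0.00873). Dnajc5, the cysteine string protein of secretory vesicles, fell by 0.23 on the log2 scale (adjusted p = 0.0371) with overlap, a call lost in 5 of the 8 fits that left out 1 library and after TPM scaling. The most abundant class C genes were not called. The splicing-associated Dnajc8 read 69.8, 72.0, 72.2 and 69.6 FPKM in vehicle against 73.1, 73.2, 71.9 and 73.2 FPKM after YKL-05-099, with 69.7 FPKM in culture (0.04, adjusted p = 0.393). Dnajc7, an adaptor between HSP70 and HSP90, and the ER reductase Dnajc10 had log2 fold changes of 0.01 and 0.00.

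Of the small heat shock genes, whose proteins hold unfolded clients without ATP, 4 of 5 tested were lower and none higher. The shares among all genes were 15.1% lower and 28.0% higher. The median log2 fold change of the class was -0.34. Hspb1 (chromosome 5, 135887919 to 135889563), the most abundant of them, read 494, 642, 591 and 728 FPKM in vehicle, 379, 410.2, 391 and 349 FPKM after YKL-05-099 and 124 FPKM in culture. Every treated library was below every vehicle library, and vehicle replicate 4 was the highest of all (log2 fold change -0.67, SE 0.106, limma adjusted p = 9.14e-04). Hspb7, known from heart and muscle, read 5.66, 4.92, 5.57 and 3.10 FPKM in vehicle, 2.48, 2.51, 2.63 and 2.26 FPKM after YKL-05-099 and 0.0643 FPKM in culture. For this gene vehicle replicate 4 was the lowest vehicle library and nearest to the treated ones (-0.72, SE 0.142, adjusted p = 0.00306). Hspb1 and Hspb7 thus went opposite to Hspa1b and Hsph1 in the same libraries.

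Hspb8 (chromosome 5, 116408491 to 116422864), the partner of Bag3 in the selective autophagy of misfolded proteins, read 426, 479, 414 and 517 FPKM in vehicle, 402, 393, 394 and 284 FPKM after YKL-05-099 and 95.8 FPKM in culture. The groups did not overlap, by a narrow margin apart from the low YKL-05-099 replicate 4. Its log2 fold change was -0.32 (SE 0.116, limma adjusted p = 0.0460), and -0.27 (adjusted p = 0.0936) without vehicle replicate 4, 1 of 6 left-out libraries that ended the call. Quantile or TPM scaling also ended it. Hspb2, a muscle-enriched member, read 4.34, 4.87, 4.36 and 3.45 FPKM in vehicle, 3.38, 3.24, 3.49 and 2.49 FPKM after YKL-05-099 and is listed at 0 in culture. It fell by 0.34 on the log2 scale (adjusted p = 0.0280) with overlap between vehicle replicate 4 and YKL-05-099 replicate 3, and 5 left-out libraries ended the call. Hspb6 was not called, at 6.70, 7.70, 5.76 and 5.95 FPKM in vehicle against 7.97, 6.31, 7.24 and 7.78 FPKM after YKL-05-099 (0.15, adjusted p = 0.234). Summed over the class, small heat shock transcripts came to 937 to 1257 FPKM in vehicle, 646 to 816 FPKM after YKL-05-099 and 243 FPKM in culture, without overlap.

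No gene of HSP90, the chaperonin or the rest of a list of 8 mitochondrial members was called. Hsp90ab1, the constitutive HSP90 and most abundant member, read 1264, 1277, 1245 and 1299 FPKM in vehicle, 1262, 1329, 1278 and 1439.9 FPKM after YKL-05-099 and 1523 FPKM in culture (log2 fold change 0.06, SE 0.0580, limma adjusted p = 0.425). The inducible Hsp90aa1 read 162, 160.5, 156 and 171 FPKM in vehicle, 174, 161, 152 and 167 FPKM after YKL-05-099 and 195 FPKM in culture (0.01, SE 0.0514, adjusted p = 0.934). Both genes overlapped widely between the groups. Hspd1 read 94.2, 101, 99.1 and 106 FPKM in vehicle against 99.3, 98.3, 100.0 and 102 FPKM after YKL-05-099 (0.00), and Hspe1 read 120.4, 131, 123 and 127 FPKM against 134, 139, 136 and 124 FPKM (0.09, adjusted p = 0.162). Hspd1 and Hspe1 overlap by 112 bases on opposite strands. None of 8 members with a well known place in mitochondria was called in limma or had an unadjusted p under 0.05 (range of log2 fold changes -0.07 to 0.09), and 1 of the 8 ER proteins was (Dnajc14, range -0.13 to 0.22). Of all genes, 43.2% were called, and 6069 of 11788 had an unadjusted limma p under 0.05. Both lists were written after the values had been seen and may leave out members of either compartment.

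The BAG genes, whose proteins link HSP70 to degradation and cell survival pathways, had 3 of 6 members higher and none lower, all by small steps. The shares among all genes were 28.0% higher and 15.1% lower. Bag2, an inhibitor of the ubiquitin ligase CHIP, read 10.6, 10.1, 9.86 and 11.8 FPKM in vehicle, 13.0, 13.3, 13.9 and 12.2 FPKM after YKL-05-099 and 27.0 FPKM in culture. It rose without overlap (log2 fold change 0.28, SE 0.0656, limma adjusted p = 0.00696). Bag3, a stress-inducible HSF1 target, was 52.1 ± 3.90 and 59.9 ± 3.39 FPKM (0.20, adjusted p = 0.0235), with overlap from vehicle replicate 4. Bag1 read 68.9, 72.0, 68.6 and 74.3 FPKM in vehicle against 78.3, 75.8, 78.0 and 78.6 FPKM after YKL-05-099, with 69.7 FPKM in culture (0.13, adjusted p = 0.0258). The Bag1 and Bag3 calls were each lost in 5 of the 8 fits that left out 1 library and after median-of-ratios scaling. Bag6, the most abundant of them and a triage factor for tail-anchored proteins, read 145, 138, 140.3 and 149 FPKM in vehicle, 148, 152, 149 and 163 FPKM after YKL-05-099 and 105 FPKM in culture (0.10, adjusted p = 0.111). Bag4 and Bag5 were not called, with 0.07 and -0.12.

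Of the 3 heat shock factors tested, 2 rose slightly, against 28.0% of all genes called higher. Hsf1, the main regulator of the response, was 21.3 ± 3.20 and 26.6 ± 1.42 FPKM (a log2 fold change of 0.32, SE 0.0899, adjusted p = 0.0171 in limma), with 18.8, 19.8, 20.7 and 25.9 FPKM in vehicle against 24.6, 27.4, 26.7 and 27.7 FPKM after YKL-05-099. Vehicle replicate 4 alone reached the treated range, and leaving out vehicle replicate 2 ended the call. Hsf2 rose by 0.15 (adjusted p = 0.0396), a call lost in 7 of the 8 fits that left out 1 library and after median-of-ratios or quantile scaling, and Hsf4, the factor of lens development, was not called (0.11, adjusted p = 0.150). HSF1 is activated as a protein, so its transcript level does not measure its activity. Members that did not pass the filter were Hspa1a, Hspa1l, Hspb3, Hspb9, Dnaja4, Dnajb3, Dnajb7, Dnajb8, Dnajb13, Dnajc6, Hsf3 and Hsf5. Their highest mouse values ran up to 0.427 FPKM, and Dnajb7, Dnajb8, Hspb3, Hspb9 and Hsf3 are listed at 0 in every library.

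**Figure D3:**
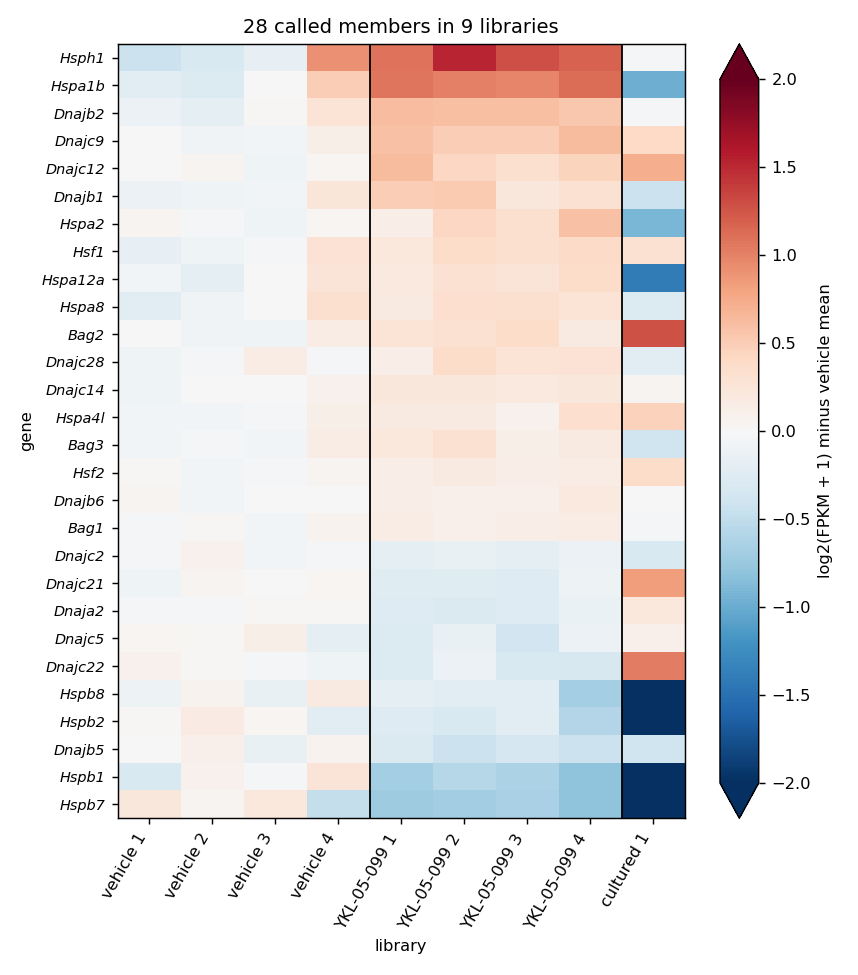
Difference of each library from the vehicle mean on the log2(FPKM + 1) scale (colour, limited to 2 units either way) for the 28 called members (rows, by fold change) in 9 libraries (columns). Vehicle replicate 4 departs from the other vehicle libraries towards the YKL-05-099 libraries for Hsph1, Hspa1b and Hspa8, and the 4 lower small heat shock genes are the darkest blue in culture.

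Vehicle replicate 4 bears on several of these results. It exceeded the mean of the other vehicle libraries by 1.21 log2 units for Hsph1, 0.65 for Hspa1b, 0.42 for Hspa8 and 0.38 for Hsf1, and was the highest vehicle library for 30 of 67 members, against 31.7% of all genes. The ER chaperone Hspa5 also stood at 1247 FPKM there and at 563 to 666 FPKM in the other vehicle libraries, and the summed immediate early genes, which respond to tissue handling, were highest there at 7719.9 FPKM. The vehicle coefficient of variation was 51.8% for Hsph1 and 43.3% for Hspa1b, against a median of 6.51% over the members and 7.60% over all genes. The part of such differences in the member values was not tested. Without vehicle replicate 4, 27 members were called, 26 of them shared. Hspb8 and Dnajc28 were lost and Dnaja1 was gained.

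Transcripts used as markers of other cell types moved with treatment, and this applies to every treatment difference above. The summed pan-leukocyte markers (15 genes) were 40.5 to 72.3 FPKM in vehicle, 23.3 to 31.0 FPKM after YKL-05-099 and 19.8 FPKM in culture, and Ptprc, which encodes CD45, stayed under 1 FPKM in every library. The 12 macrophage markers summed to 133 to 289.8 and 19.3 to 72.8 FPKM, the 7 erythroid markers to 244 to 1487 and 1.45 to 92.8 FPKM, the 10 lymphocyte markers to 10.8 to 40.7 and 0.634 to 1.32 FPKM, and the 7 fibroblast markers to 609 to 653 and 517 to 598 FPKM. Igkc alone gave 9.46 to 39.9 FPKM of the vehicle lymphocyte sums. Dcn gave 499 to 544 FPKM of the fibroblast sums in vehicle and 463 to 531 FPKM after YKL-05-099. Col1a2 read 12.4 to 24.9 FPKM in vehicle and 2.03 to 3.49 FPKM after YKL-05-099. Of 5 fibroblast markers tested, 4 were called lower in limma (median log2 fold change -0.91), against 15.1% of all genes. The cultured BeCon library itself read 309.9 FPKM over the fibroblast markers, with Dcn at 243, Col1a1 at 32.2, Col3a1 at 23.6 and Pdgfra at 10.5 FPKM. Col1a2, Lum and Pdgfrb were under 1 FPKM there. Lower values of these markers therefore do not by themselves count fibroblasts. No marker was at 0 in all libraries. Endothelial markers (5 genes) overlapped, at 5.48 to 8.24 and 5.48 to 7.00 FPKM. The tumor list summed to 1977 to 2067 FPKM in vehicle, 1905 to 1940.1 FPKM after YKL-05-099 and 1279 FPKM in culture. Wt1, Krt18, Krt19 and Upk3b were abundant, and the epithelial markers Epcam, Cdh1 and Pax8 were under 1 FPKM throughout. These sums hold opposed changes. Of 10 tested, 2 were called higher and 4 lower, against 28.0% and 15.1% of all genes. Krt18 went from 166 to 177 FPKM in vehicle to 241 to 251 FPKM after YKL-05-099, and Krt19 from 345 to 382 FPKM to 271 to 296 FPKM. With the pan-leukocyte mean added to the fit as a covariate, 0 members were called in limma (7 had an unadjusted p under 0.05) and 448 of all genes. The covariate did not overlap between the groups, and the median SE of the members went from 0.0613 to 0.125. The median size of the fold change of the 28 called members went from 0.28 to 0.21, and 25 of them had the same sign. Hsph1 went from 1.27 to 0.72 (adjusted p = 0.474), Hspa1b from 1.04 to 0.45 (adjusted p = 0.320), Dnajb2 from 0.59 to 0.29 (adjusted p = 0.314), Dnajc9 from 0.55 to 0.36 (adjusted p = 0.0876), Hsf1 from 0.32 to 0.09 (adjusted p = 0.817) and Hspa8 from 0.28 to 0.07 (adjusted p = 0.886). Of the small heat shock genes, Hspb7 went from -0.72 to -0.37 (adjusted p = 0.499), Hspb8 from -0.32 to -0.12 (adjusted p = 0.832) and Hspb2 from -0.34 to 0.06 (adjusted p = 0.895), while Hspb1 was -0.67 and -0.69 (adjusted p = 0.133). Beyond this fit, the part of these cells in the differences was not tested.

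Other genes of protein folding are given as counts. They are to be read beside all genes, of which 28.0% were higher and 15.1% lower, with a median log2 fold change of 0.05. Of 19 HSP90 co-chaperones 14 were higher and 1 lower in limma (median log2 fold change 0.18), while neither HSP90 gene was. They included Unc45a, a myosin and HSP90 co-chaperone (0.34), Ttc4 (0.30) and Nudc (0.23), and the lower one was Fkbp5, a glucocorticoid-induced immunophilin (-0.35). Of 14 other known HSF1 target genes 9 were higher and none lower (median 0.26), and those with the smallest p were Sqstm1, the autophagy receptor (0.49), Mrpl18 (0.29) and the ubiquitin gene Ubb (0.62). This list shares Chordc1, Stip1, Ahsa1, Cacybp, Fkbp4 and Ptges3 with the co-chaperones and Tcp1 with the chaperonin below, so the counts are not separate. The cytosolic chaperonin TRiC, which folds actin and tubulin, had 3 of 8 subunits lower (Cct6a at -0.24, Cct3 at -0.17 and Cct5 at -0.16) and none higher, with a median of -0.10.

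Prefoldin, which passes clients to TRiC, had none of 6 subunits called (Pfdn6, at 0.19, had an unadjusted limma p of 0.0234). The shares among all genes, 28.0% higher and 15.1% lower, apply to each count here. Of 14 tested mitochondrial chaperones and proteases 2 were higher (Hscb at 0.24 and Timm44 at 0.19) and 2 lower (Grpel1 at -0.14 and Afg3l2 at -0.13). Among the 5 ER chaperones left out of the set, Hsp90b1 (0.48) and Dnajb9 (0.61) were higher, while Hspa5 (0.52, adjusted p = 0.104) was not called. Immediate early genes had 2 of 9 tested members lower (Btg2 at -0.74 and Ier2 at -0.73) and none higher. YKL-05-099 replicate 4 was far the lowest for both, at 162 FPKM for Btg2 and 169.6 FPKM for Ier2. The other treated libraries read 317 to 335 FPKM and 384 to 412 FPKM. With the heat shock element match, 3 of 11 tested members were higher (Hsph1, Hspa1b and Dnajb6) and 1 lower (Hspb1). Without it, 12 of 39 were higher and 5 lower. Both higher counts lie near the share of 28.0% among all genes, so nothing is read from the match.

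Cultured cells differed from vehicle cells mainly in the small heat shock genes. With 1 cultured library there is no test. A member counted as higher or lower when its cultured value was beyond that of each of the 8 mouse libraries and differed from the vehicle mean by 1 log2 unit or more. By this rule 4 of 67 members were higher, against 9.62% of 12296 genes, and 5 were lower, against 10.5%. The cultured value lay above the range of the mouse libraries for 27 members and below it for 23, against 37.4% and 36.2% of genes. The median difference was 0.01 in the set and 0.03 in all genes.

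Lower in culture were Hspb7 (-2.42), Hspb1 (-2.29), Hspb8 (-2.24), Hspa12a (-1.40) and Hspb2, which is listed at 0 there. Treatment and culture differences use the same vehicle libraries, so that a shift in those moves both, and nothing is read from their signs. Side by side they were -0.72 and -2.42 for Hspb7, -0.67 and -2.29 for Hspb1, -0.32 and -2.24 for Hspb8, and 0.28 and -1.40 for Hspa12a. The fifth tested small heat shock gene, Hspb6, a partner of other small heat shock proteins in muscle, went up instead, at 23.7 FPKM in culture against 6.53 ± 0.882 FPKM in vehicle (1.72). Bag2 at 27.0 FPKM against 10.6 ± 0.884 FPKM (1.28), the mitochondrial Hspa9 at 177 FPKM against 86.1 ± 1.70 FPKM (1.03) and Dnajc22 at 23.6 FPKM against 11.2 ± 0.597 FPKM (1.02) were also higher. The treatment differences of these 4 were 0.15 for Hspb6, 0.28 for Bag2, -0.07 for Hspa9 and -0.25 for Dnajc22. Hspa1b lay just outside the rule at -0.98, with 0.234 FPKM against 1.48 ± 0.643 FPKM, and Hspa9 and Dnajc22 just inside it.

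**Figure D4:**
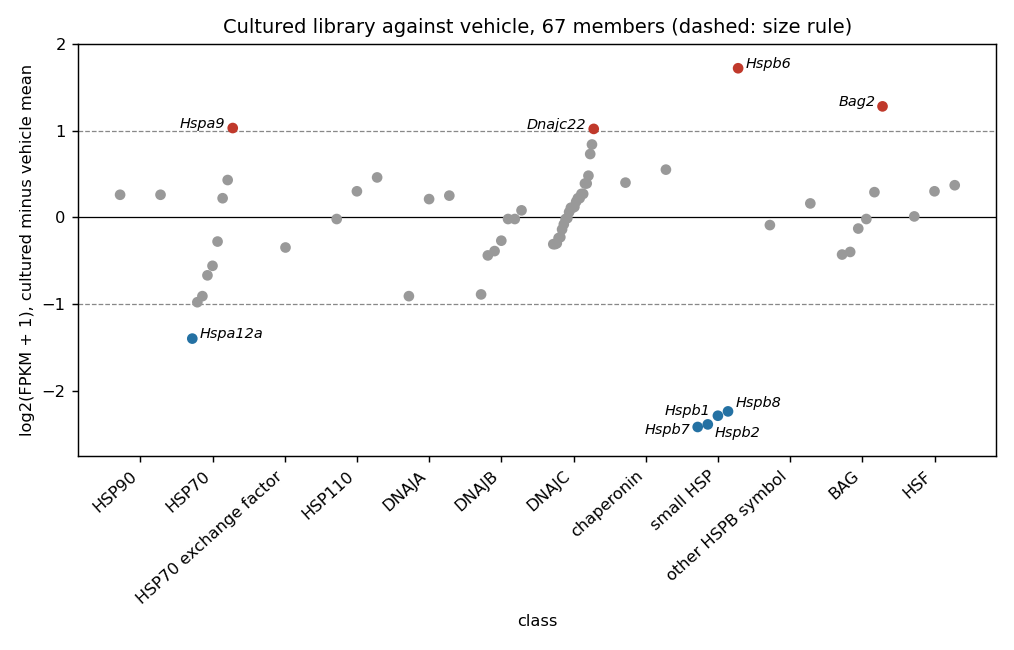
Cultured library minus vehicle mean on the log2(FPKM + 1) scale (vertical axis) for 67 members by class (horizontal axis), in ascending order within a class. Dashed lines are at 1 and -1, red points are the 4 higher and blue points the 5 lower members, and the 4 small heat shock genes at -2.24 to -2.42, of which Hspb2 is listed at 0 in culture, lie apart from all other members.

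Among the genes described for treatment, Hsph1 at 20.7 FPKM in culture was within the vehicle range (difference -0.02), Dnajb1 at 17.1 FPKM (-0.44), Dnaja1 at 21.7 FPKM (-0.91) and Hspa8 at 495 FPKM (-0.28) lay below all 8 mouse libraries, and Hsf1 at 26.3 FPKM lay inside their range. Hsp90ab1, Hsp90aa1, Hspd1 (147 FPKM) and Hspe1 (165 FPKM) all lay above the range of the mouse libraries, by 0.26 to 0.55 log2 units from the vehicle mean, as did all 8 TRiC subunits. All 9 tested immediate early genes were lower in culture by the rule. Sorting, ascites and tissue handling separate the mouse libraries from the cultured one and cannot be told apart from growth in culture.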

How the data were processed

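The authors deposited 1 FPKM value per gene and library with a status, per the file headers. Demultiplexing used bcl2fastq 2.19 and the build is GRCm38, per the submitters' processing notes. Aligner, quantification program and use of strand: not given in the sources used here. Of 48302 rows, 65 with a repeated gene identifier and 7 with a failed estimate were left out. FPKM summed to 453169 to 482851 per library, and 11421 to 11893 genes reached 1 FPKM. The pile of lowest values of 4254 single-transcript genes lay at roughly 23000000 to 35000000 fragments per library, which gives no interval for a single gene.

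Groups follow the sample titles. Treatment was tested with limma 3.58.1 in R 4.3.3 (mean-variance trend) on log2(FPKM + 1) for genes at 1 FPKM or more in at least 4 of the 8 mouse libraries, with Benjamini-Hochberg adjustment over all genes. The fit was tested on simulated data. Alternatives, 17 for the treatment contrast, covered pseudocount, filter, scaling, a replicate block, a pan-leukocyte covariate and each library left out. Members and lists were chosen with earlier results of these data known. Values in every library are given for the 12 members with the smallest p, the 12 with the highest mean and those past the size rule in culture. Each tested HSP90, HSP70, HSP110, small heat shock, chaperonin, HSF and BAG gene is named, and of each DNAJ class the 5 with the smallest p and the 3 most abundant. Other called DNAJ genes, the library values of Hsf1, Hspa1a and Dnajb1 and the location lists were added after values were seen. Promoter windows came from RefSeq on GRCm38.p6, exon overlaps and coding identity from GENCODE. Gene coordinates (GRCm38) follow the deposited table, shifted to count from 1.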

Additional observations from a re-analysis of the deposited data

Results flagged for a closer look

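In 7 of 133 groups of 4 libraries checked, 1 library stood apart from the others by Dixon's criterion (the gap to the nearest library over the range of the group), a rate that chance alone gives in about 1 of 20 groups. In vehicle replicate 4 these were Hsph1 at 40.4 FPKM (next value 18.7), Bag3 at 57.9 FPKM (50.7) and Dnajb1 at 28.0 FPKM (22.5), all higher than the other vehicle libraries. In YKL-05-099 replicate 4 Hspb8 was low at 284 FPKM (393) and Dnajc21 high at 15.1 FPKM (13.6). In YKL-05-099 replicate 3 Dnajc8 was low at 71.9 FPKM (73.1) and Bag4 low at 6.56 FPKM (8.08).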

How the results depend on the processing

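Of the 28 called members, 16 were called in all 8 fits that left out 1 library. They were also called in each scaling, filter and pseudocount alternative that tested them. The filter at a mean of 5 FPKM kept 55 members, and left Hspa1b, Hspb7, Dnajb5 and Dnajc12 untested. The number of higher members was 18, 10 after median-of-ratios scaling and 10 to 18 with 1 library left out (10 without vehicle replicate 2, 11 without vehicle replicate 1 or YKL-05-099 replicate 2). Lower members numbered 7 to 9 and all called members 17 to 27 in those fits, the 17 without vehicle replicate 2. With the pan-leukocyte covariate 0 members were higher, 0 lower and 0 called, and of all genes 262 were higher, 186 lower and 448 called. There Hspa4l (-0.03), Hspa12a (-0.02) and Hspb2 (0.06) changed sign, and the cause was not tested beyond the larger standard errors. The share of higher genes among all called was 64.9%, 52.5% after median-of-ratios and 51.0% after quantile scaling.

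In the replicate block fit, which pairs libraries by number, 24 members were called (16 higher and 8 lower) and 4830 genes. The libraries share only a number: deviations of same-numbered libraries correlated at -0.02, 0.13, -0.05 and 0.17, and only number 4 correlated best with its own.

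In culture, 8 members were lower with a pseudocount of 0.1, which widens differences of low genes, and 3 with a mean of at least 5 FPKM in the higher group, which leaves out Hspb2 and Hspb7. At a difference of 2 log2 units 0 members were higher and 4 lower, and of all genes 256 were higher and 376 lower. Dnajc22 did not pass without vehicle replicate 4 or after quantile scaling, and Hspa1b passed without vehicle replicate 1 or 2. Depth, approximate here, limits genes near 1 FPKM such as Hspa1b and Dnajc12.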
